A study of Mus musculus with 4 samples.

Results

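The MYC, MAX and MXD network was examined in mouse embryonic fibroblasts transfected with a negative control siRNA or with one that targets Xpo5 (which encodes Exportin-5, the carrier of microRNA precursors out of the nucleus). Its 10 genes were taken by name: Myc, Mycn, Mycl1, Max, Mxd1, Mxd3, Mxd4, Mxi1, Mnt and Mlx. Every non-control probe of the array that carries one of these names was read on its own, which gave 18 probes of 41174. Of these, 17 met the detection rule, by which both arrays of an siRNA group must call the probe well above background, and stand among the 25640 probes kept, and all 10 genes have at least 1 such probe. The remaining probe, the second of Mycn, was called so on 0 of the 4 arrays. The set was chosen by gene name, but with the measured differences between the siRNAs already known, which counts as selected on those values. Those differences are therefore given for the members as a description, without a p-value.

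The cells were wild type primary fibroblasts of the C57BL/6 strain. Both groups were grown in medium with 10% serum, transfected with 60 nM siRNA and left for 12 h, held in 0.2% serum for 48 h, and then given 20% serum together with more siRNA for 24 h. The groups differ in the siRNA alone. Each held 2 samples, from the 2 independent experiments that the study names, and each sample had its own 1-colour array. Nothing in the labels says whether the experiments used separate embryos, so the spread between these samples may be technical.

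MYC family proteins are transcription factors of the basic helix-loop-helix leucine zipper class that bind DNA only as a pair with MAX. The MXD proteins, MXI1 and MNT compete for MAX and recruit SIN3 corepressors to the same DNA element, the E-box, so that the balance between them sets the output of growth and cell cycle genes. MLX is a MAX-like partner that pairs with the glucose-sensing Mondo proteins and with some MXD proteins. In fibroblasts Myc is a classic early gene of the response to serum.

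The E-box that the network reads is the palindrome CACGTG. It was searched in the RefSeq promoter windows of build GRCm38.p6, each of which runs from 250 bases before a transcript start to 50 after it. Of the 10 members, 9 had a window, Myc being the exception, and 4 of these 9 held the motif in a window. Of all 27025 genes with a window, 8.09% held it in at least 1. These 4 stretches of 60 bases are shown because they place the network's own binding letters at genes of the network, with the motif in capitals and each written 5′ to 3′ on the strand of the gene.
Max: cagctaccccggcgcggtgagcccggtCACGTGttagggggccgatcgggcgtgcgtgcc
Mxd4: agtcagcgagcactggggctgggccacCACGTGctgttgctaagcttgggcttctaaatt
Mnt: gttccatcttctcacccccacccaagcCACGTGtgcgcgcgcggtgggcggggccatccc
Mlx: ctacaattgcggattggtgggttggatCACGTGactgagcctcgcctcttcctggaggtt
The Max stretch lies at chr12:76962219-76962278 on the minus strand and its motif spans the annotated start, beginning 3 bases before it. In Mxd4, at chr5:34187897-34187956 on the minus strand, the motif begins 219 bases before the start. In Mnt it begins 123 bases before, within chr11:74830774-74830833 on the plus strand, and in Mlx 40 bases before, within chr11:101087223-101087282 on the plus strand. The windows of Mycn, Mycl1, Mxd1 and Mxd3 and the 3 windows of Mxi1 did not hold these letters. A match is a string in a window and not a measured binding site.

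Values below are log2 levels relative to the 75th percentile of the probes of the same array, and a difference is Xpo5 siRNA minus control siRNA on that scale. Levels are not set against each other between probes, because each probe hybridises with its own strength. The probes of a gene are numbered from the brightest. Between 62.4% and 65.0% of the spots of an array were well above background, and 0 were saturated. The probe of Xpo5 with the largest signal differed by -3.23 ± 0.14 (SE, n = 2 arrays in each group), at an adjusted p of 0.0657 over all probes in limma. Its other kept probes differed by -3.08 (limma adjusted p = 0.178) and -1.34 (limma adjusted p = 0.425), and the last, too dim to be kept, read 1.17. All 16 fibroblast markers examined were well above background on all 4 arrays.

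The MYC genes themselves were lower with Xpo5 siRNA at Myc and Mycl1 and did not differ beyond the gap between replicates at Mycn. Myc, the broadly expressed member of the family, is read by 3 probes on chromosome 15 (mm9 build, plus strand). Myc probe 1, at 61821516 to 61821576, had levels of 2.18 and 1.95 on the control arrays and 1.59 and 1.44 on the Xpo5 siRNA arrays. Both Xpo5 siRNA arrays were below both control arrays, with a difference of -0.55 ± 0.16 (SE), which is 68.3% of the control signal. This probe is printed in 10 spots per array, which gives a measure of the error within an array. The processed signal of the spots ran from 2031 to 2713 on replicate 1 and from 2049 to 2590 on replicate 2 of control siRNA. With Xpo5 siRNA it ran from 1479 to 1695 on replicate 1 and from 1337 to 1464 on replicate 2. No spot of an Xpo5 siRNA array reached the dimmest spot of a control array. Spots on 1 array are repeat measurements of the same sample and not replicates of the condition.

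**Figure D1:**
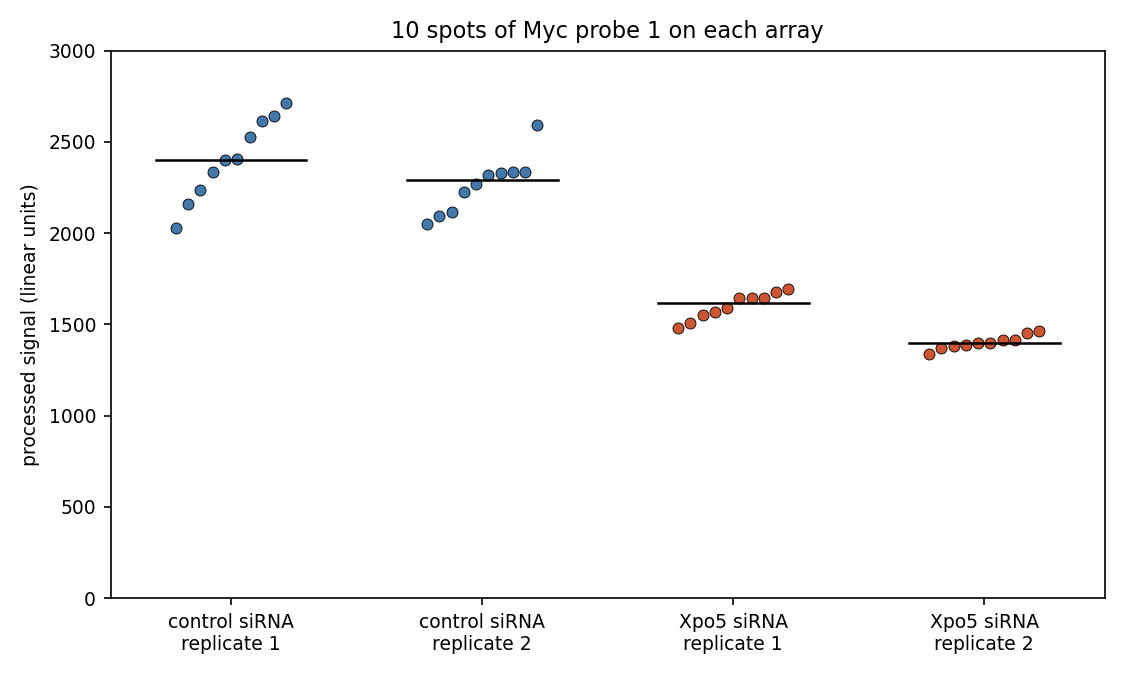
Processed signal (linear intensity units, not scaled between arrays) of the 10 spots of Myc probe 1 on each of the 4 arrays; points are spots, placed from left to right by value, and bars are medians (2402, 2294, 1618 and 1399 from left to right). The spots of the Xpo5 siRNA arrays lie at 1337 to 1695, below the lowest control spot at 2031.

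The other probes of Myc gave differences of similar size. Myc probe 2, at 61821417 to 61821476, stood at 1.42 and 1.33 with control siRNA and at 0.80 and 0.92 with Xpo5 siRNA, a difference of -0.52 ± 0.14 (SE). The third and dimmest, at 61820925 to 61820984, stood at -1.61 and -1.07 with control siRNA and at -1.93 and -1.70 with Xpo5 siRNA, a difference of -0.47 ± 0.24 (SE). For each of the 3 probes the groups did not overlap. Within the experiments the differences were -0.59 and -0.51 for probe 1, -0.63 and -0.41 for probe 2, and -0.32 and -0.63 for probe 3. Across the slides, each of which carried a control and an Xpo5 siRNA array of unlike replicate number, probe 3 ranged from -0.86 to -0.09, and probe 1 from -0.74 to -0.36. The third probe lies in the coding part of the gene. It is printed here to show what was hybridised.
Myc probe 3: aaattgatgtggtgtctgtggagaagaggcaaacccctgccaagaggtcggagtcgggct

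Mycl1, official symbol Mycl, is the member of the family first found in small cell lung cancer, and had the largest difference of the MYC genes. Its single probe, on chromosome 4 at 122679548 to 122679607, stood at -1.77 and -1.83 with control siRNA and at -2.60 and -2.70 with Xpo5 siRNA. The arrays of a group lay within 0.10 of each other, and the difference was -0.85 ± 0.14 (SE), or 55.4% of the control signal. It was -0.83 and -0.87 within the experiments. Mycn, the family member of neural and other progenitors, stood at -3.39 and -3.95 with control siRNA and at -3.42 and -3.91 with Xpo5 siRNA on the probe at 12943193 to 12943252 of chromosome 12. The gap between its replicates was 0.56 with control siRNA and 0.49 with Xpo5 siRNA, and the difference between the siRNAs, 0.01 ± 0.28 (SE), lay well inside it. Its sign turned with quantile normalization and with median scaling, at -0.09 and -0.10, and without replicate 2 of control siRNA, at -0.27.

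Max, the gene of the partner that MYC, MXD and MNT proteins share, stood at 3.85 and 3.52 with control siRNA and at 3.48 and 3.25 with Xpo5 siRNA. The lower control array and the higher Xpo5 siRNA array were 0.04 apart on the same slide, and the difference of -0.32 ± 0.19 (SE) split into -0.37 and -0.27 by experiment and into -0.04 and -0.60 by slide. Its probe is at 78038283 to 78038342 of chromosome 12, minus strand. Mlx, the MAX-like partner, had control levels of 0.18 and 0.47, against 0.10 and 0.22 under Xpo5 siRNA, on the brighter of its probes, at 100952426 to 100952485 of chromosome 11. The groups overlapped, and the difference was -0.16 ± 0.17 (SE). The dimmer Mlx probe, taken from a cDNA clone, passed the background call on 3 arrays and read 0.73 in the first experiment and -1.11 in the second.

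The repressor genes differed in both directions. Mxi1, a MAX partner that recruits SIN3 corepressors, had the lowest difference among all the member probes. Its single probe, at 53446996 to 53447055 of chromosome 19, stood at -1.26 on both control arrays and at -2.42 and -2.25 with Xpo5 siRNA. Its difference of -1.07 ± 0.15 (SE) is 47.5% of the control signal, and it came to -1.15 in the first experiment, -1.0 in the second, and -1.16 and -0.99 by slide. Over all probes kept, 0.488% differed by -1 or less. Since Mxi1 was in view when the set was drawn up, that share only places its value.

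Mxd3, an MXD member known from dividing cells, was lower on both of its probes. Probe 1 maps over 174 bases of chromosome 13, from 55427253 to 55427426, so that its 60 bases are not contiguous in the genome, and stood at 0.24 and 0.46 with control siRNA and at -0.13 and -0.03 with Xpo5 siRNA. Its difference was -0.43 ± 0.16 (SE). Probe 2, at 55427000 to 55427059, stood at 0.08 and -0.06 against -0.44 and -0.13, a difference of -0.29 ± 0.17 (SE). The groups did not overlap on either probe, although the second experiment gave only -0.07 on probe 2.

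Mxd1, the founding MXD gene, whose transcript is known to rise as cells leave the cycle and differentiate, was higher on its brighter probe. That probe, at 86597190 to 86597249 of chromosome 6, stood at -1.25 and -1.27 with control siRNA and at -0.83 and -0.88 with Xpo5 siRNA. The groups stood clear of each other, with a difference of 0.41 ± 0.14 (SE), which was 0.43 and 0.39 within the experiments. The dimmer Mxd1 probe, at 86600751 to 86600810, was well above background on 3 arrays, read 0.33 in the first experiment and -0.24 in the second, and gave no direction.

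Mxd1 is also expressed in blood cells, and macrophage markers were higher with Xpo5 siRNA in these samples. All 15 of the 15 markers tested, of 16 listed, were higher in both experiments, with a median of 0.66, where 5114 of all 13916 genes were higher in both. The median was 1.08 on slide 1 and 0.31 on slide 2, and 0.54 and 0.82 by experiment. The markers were listed with this contrast known, so these values are a description. Their summed level was 45.1 to 63.5 times the 75th percentile signal with control siRNA and 76.3 to 89.7 with Xpo5 siRNA. Laptm5 differed by 0.87, C1qa by 0.89, C1qb by 0.71 and Aif1 by 1.08, and Spi1, a defining myeloid factor, passed the background call on a single array. A higher median was not particular to macrophages: neural markers had 0.30 and endothelial markers 0.40, against -0.01 for epithelial and 0.08 for fibroblast markers. Of the 10 neural markers tested 7 were higher and 3 lower. The summed level of the neural markers was 25.3 to 25.9 with control siRNA and 19.8 to 20.4 with Xpo5 siRNA. The endothelial median rests on 4 tested genes of 8 listed, 3 higher and 1 lower. More cells of a type and more RNA per cell cannot be told apart in bulk samples, and the part of the macrophage markers in the Mxd1 value was not tested.

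Mxd4 had the highest difference of the member probes, and its 3 probes disagreed. Probe 1, taken from a cDNA clone and at 34516836 to 34516895 of chromosome 5, stood at 1.02 and 1.05 with control siRNA and at 1.52 and 1.96 with Xpo5 siRNA. The difference of 0.71 ± 0.20 (SE), or 163% of the control signal, was 0.50 in the first experiment and 0.91 in the second. Probe 2, at 34520307 to 34520366, stood at -0.61 and -0.12 against -0.50 and -0.26, with overlapping groups and a difference of -0.01 ± 0.23 (SE). Probe 3, from a thymus cDNA that the files call unclassifiable, at 34523656 to 34523715, stood at -3.98 and -3.92 against -4.28 and -4.30, a difference of -0.34 ± 0.14 (SE). With normexp background correction the difference of this dim probe was -0.03. On the minus strand the order from probe 1 to probe 3 runs from the 3′-most probe to the 5′-most. Probe 2 lies in the coding sequence, in the leucine zipper that pairs with MAX. It had no difference beyond the spread between replicates. Whether probes 1 and 3 lie in coding sequence was not worked out.
Mxd4 probe 2: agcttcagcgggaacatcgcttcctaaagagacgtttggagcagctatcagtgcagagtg
A statement about Mxd4 as a gene therefore depends on the probe that is read.

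Mnt, a large MAX partner present in both resting and growing cells, stood at 3.48 and 2.92 with control siRNA and at 3.43 and 3.13 with Xpo5 siRNA. Its difference of 0.08 ± 0.25 (SE) was smaller than the gap of 0.56 between the control arrays, and its sign turned with median scaling, at -0.03, and without replicate 2 of control siRNA, at -0.20. The probe is at 74658915 to 74658974 of chromosome 11.

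**Figure D2:**
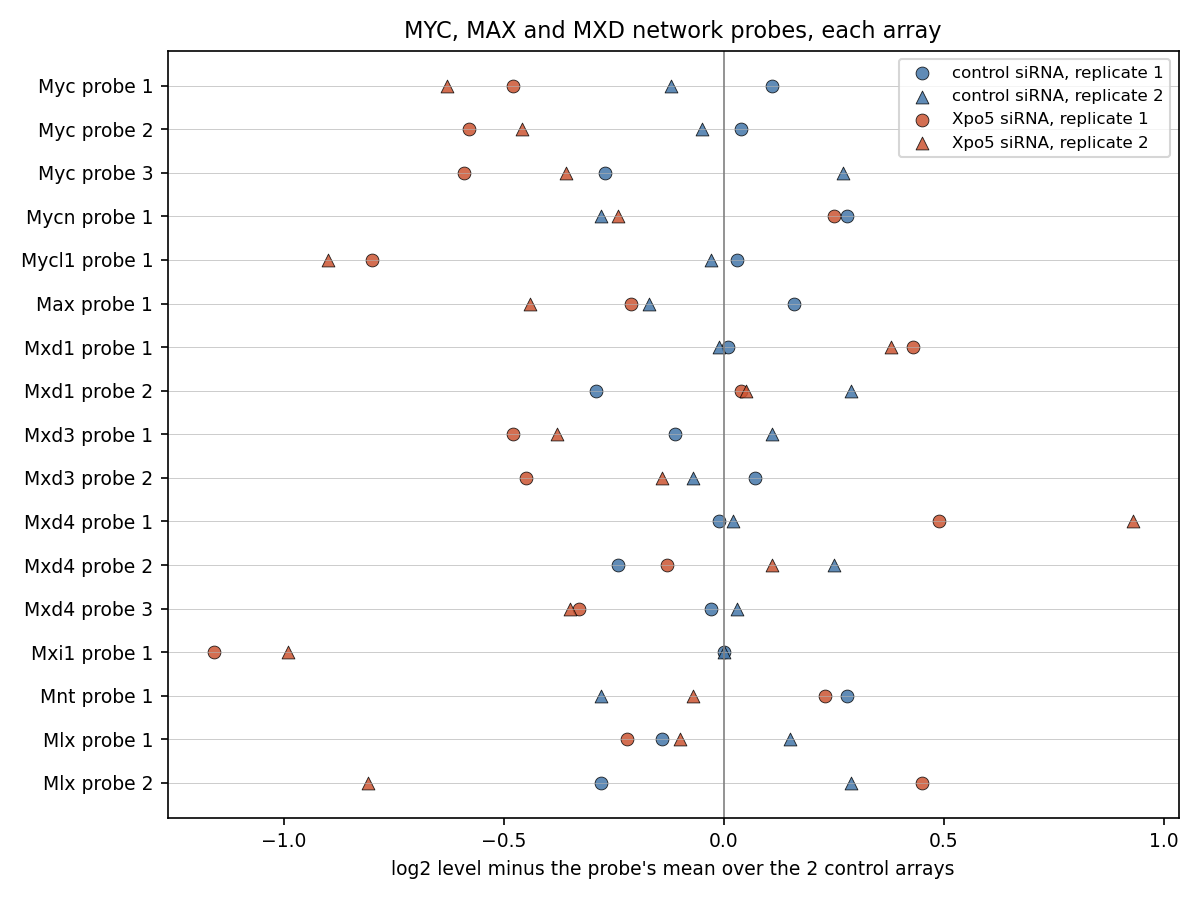
Each of the 17 kept probes in a row; the x axis is the log2 level of an array minus the probe's mean over the 2 control arrays, blue marks control siRNA and red Xpo5 siRNA, circles replicate 1 and triangles replicate 2. Mxi1, Mycl1, Max, the 3 Myc probes, both Mxd3 probes and Mxd4 probe 3 have both red points to the left of both blue ones. Mxd1 probe 1 and Mxd4 probe 1 have them to the right.

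Over the 17 kept probes the differences ran from -1.07 to 0.71 with a median of -0.29. Of these, 12 were lower and 5 higher with Xpo5 siRNA, where 48.2% of all kept probes were lower. In both experiments 10 were lower and 2 higher, where 69.6% of all kept probes had 1 sign in both. Myc probe 1, Mycl1 and Mxi1 were lower by at least 0.5 in both, as were 2.5% of all kept probes. The groups did not overlap for 11 probes, 9 lower and 2 higher, where 43.2% of all kept probes did not overlap, 21.7% lower and 21.5% higher. In limma, across all 25640 probes, 0 passed at an adjusted p under 0.05 (0%), against 2784 at an unadjusted p under 0.05, and so 0 of the 17 member probes passed. With the replicate number as a block 4 probes passed (0.0156%), and again 0 of the members. Since the set was chosen with this contrast known, nothing is read from these counts. Of the 17 probes, 12 had the same sign under every alternative processing. Those that turned under at least 1 were the Mycn probe, the dimmer Mxd1 and Mlx probes, Mxd4 probe 2 and Mnt.

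The contrast between the 2 experiments was not used to choose the genes and could be tested. In a fit with the siRNA as a term, the replicate 1 arrays were above the replicate 2 arrays by 0.52 ± 0.11 (SE) for Mycn and by 0.43 ± 0.13 for Mnt. They were below by a difference of -0.39 ± 0.13 for Myc probe 3 and -0.37 ± 0.13 for Mxd4 probe 2. None of the 17 probes passed in limma, where the smallest adjusted p was 0.127, and 0% of all 25639 probes did. At an unadjusted p under 0.05 there were 4, those just named, of 17, where 23.3% of all probes reached that level. With an intensity trend Mnt passed, at an adjusted p of 0.0266 in limma, as 11.6% of all probes did. With normexp background correction Mnt and Mxd4 probe 2 passed, at adjusted p values of 0.0219 and 0.0385 in limma, as 13.7% of all probes did. For 13 of the 17 probes the gap had the same sign in both siRNA groups, and for 6 it was larger than the difference between the siRNAs. The shares of all probes that did so were not worked out, so nothing is read from these counts. Mxi1, Mycl1 and Mxd1 probe 1 had gaps of -0.09, 0.08 and 0.04, against siRNA differences of -1.07, -0.85 and 0.41.

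**Figure D3:**
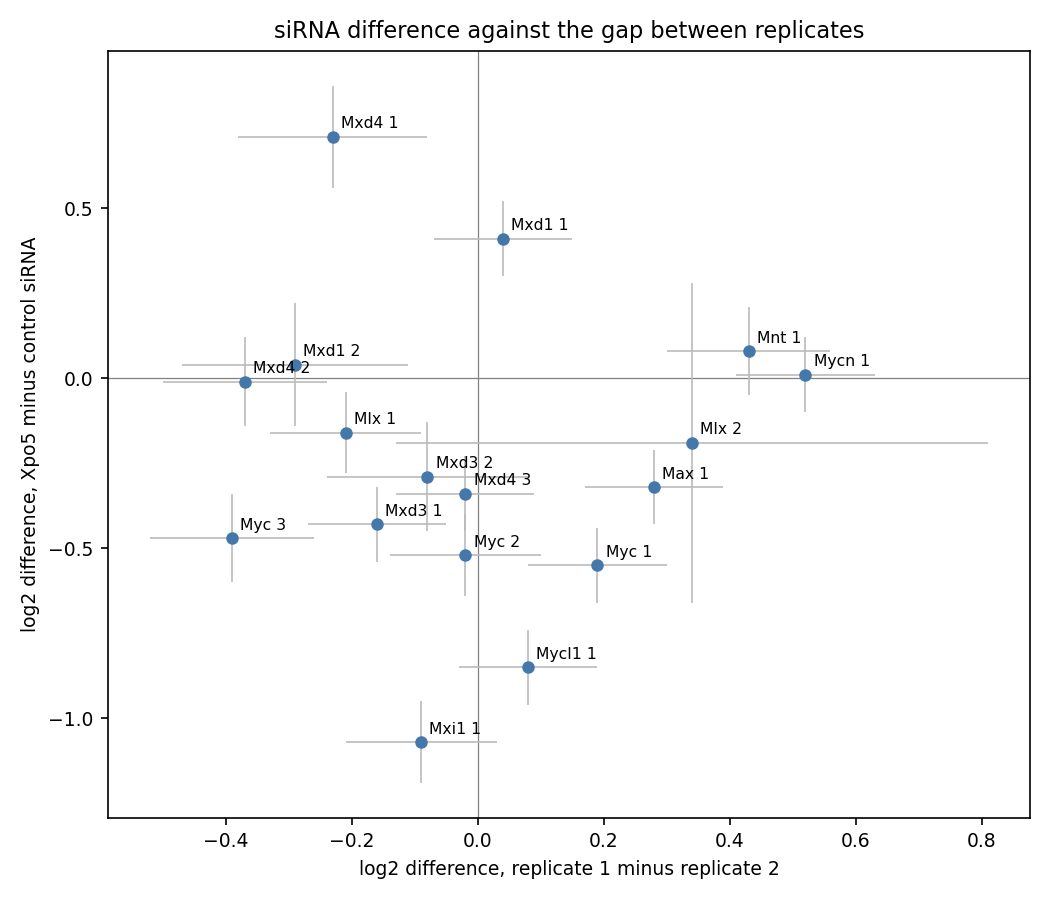
Each point is a kept probe, labelled by gene and probe number; the x axis is the log2 difference between replicate 1 and replicate 2 and the y axis that between Xpo5 and control siRNA, with bars of 1 SE from the fit that holds both terms. Mxi1 and Mycl1 lie far from 0 on the y axis only, while Mycn and Mnt lie far from 0 on the x axis only.

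Genes whose products work with the network were read through a list of 44 partners and regulators, of which 42 were tested, each by its brightest probe. Their median difference was -0.20, beside 0.01 for all 13916 genes tested, and 30 of the 42 were lower, where 48.9% of all genes were. The median was -0.08 on slide 1 and -0.25 on slide 2, and -0.16 and -0.20 by experiment. In limma 0 of the 42 passed in the fit over all genes, where 0.0216% of genes did. An unadjusted p under 0.05 was reached by 8, all of them lower, where 14.7% of genes did, 5.81% lower and 8.87% higher. The groups did not overlap for 20 lower and 3 higher partners, where 22.9% of all genes were lower and 24.7% higher without overlap. With the replicate block, which leaves 1 residual degree of freedom, 4.37% of genes passed, 1.38% lower and 2.99% higher. Over probes, the same model passed 0.0156%, so calls with the block differ between the fit over genes and the fit over probes. The reason for that was not tested. In this list 2 fell and 0 rose with the block. Skp2, the ubiquitin ligase subunit that targets MYC and p27, fell by 0.81 on the log2 scale (limma adjusted p = 0.0453 with the block and 0.149 without it), and its other probe read -0.57. Mlxip, the gene of MondoA, the partner of MLX, was at -0.65 and -0.87 with control siRNA and at -1.48 and -1.76 with Xpo5 siRNA. It fell by 0.86 (limma adjusted p = 0.0437 with the block and 0.161 without it). Usf2, an E-box factor of the same class, read -0.49, with its other probe at -0.92, and Tfap4, a MYC-induced E-box factor, read -0.57, with its other probe at -0.09. Neither passed. As the list was drawn up with earlier results of these data known, its counts and p-values are a description.

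Genes that MYC is known to activate were read through a list of 54, all of them tested. Their median was -0.21, and 47 of the 54 were lower, 40 of them in both experiments, where 35.2% of all genes were lower in both. The medians were -0.20 in each experiment, and -0.17 and -0.23 within the slides. In limma 0 of the 54 passed in the fit over all genes, where 0.0216% of genes did. An unadjusted p under 0.05 was reached by 7, all lower. Of all genes 14.7% had an unadjusted p under 0.05, 5.81% lower and 8.87% higher. The groups did not overlap for 31 lower and 4 higher genes of the 54, where the shares of all genes were 22.9% and 24.7%. With the block 2 fell and 0 rose, where 1.38% of all genes fell and 2.99% rose. Tfrc, the transferrin receptor gene, stood at 1.00 and 0.86 with control siRNA and at 0.09 and 0.06 with Xpo5 siRNA, and fell by 0.86 ± 0.13 (SE, limma adjusted p = 0.0437 with the block and 0.144 without it). Shmt1, a serine hydroxymethyltransferase gene of 1-carbon metabolism, fell by 0.70 (limma adjusted p = 0.0487 with the block and 0.161 without it), with its other probe at -0.19. The pentose phosphate gene Rpia read -0.59 and the nucleolar gene Nop16 -0.91, with its other probe at -0.87, and neither passed. Of the 46 activated genes with a promoter window, 12 held CACGTG. These had a median difference of -0.12, with 11 of 12 lower, and the 34 without it one of -0.22, with 29 lower. The activated list too was drawn up with earlier results of these data known, so its counts and p-values are a description.

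Genes that MYC is known to repress gave a mixed picture over 24 genes, with a median of 0.10, 15 higher and 9 lower, where 51.1% of all genes were higher. The median was 0.19 on slide 1 and 0.08 on slide 2. Without replicate 1 of control siRNA 5 were lower, and with median scaling the median was -0.01, with 13 lower. In limma 0 of the 24 passed in the fit over all genes, where 0.0216% of genes did. At an unadjusted p under 0.05 there were 4 higher and 1 lower, where 8.87% of all genes were higher and 5.81% lower. The groups did not overlap for 10 higher and 3 lower genes of the 24, where 24.7% of all genes were higher and 22.9% lower without overlap. With the block 2 rose and 0 fell, where 2.99% of all genes rose and 1.38% fell. Ndrg2, which MYC represses in many cell types, stood at -2.00 and -1.60 with control siRNA and at -0.75 and -0.35 with Xpo5 siRNA, and rose by 1.25 ± 0.22 (SE, limma adjusted p = 0.0437 with the block and 0.157 without it). Cav1, the caveolin gene, rose by 0.66 (limma adjusted p = 0.0479 with the block and 0.166 without it), with its other probe at 0.52. Cdkn2b, the gene of the kinase inhibitor p15, read 0.57, and Btg2, an antiproliferative early gene, read -0.55, with its other probes at -0.72 and -0.64. Neither passed. Since the repressed list was also drawn up with earlier results of these data known, its counts and p-values are a description.

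**Figure D4:**
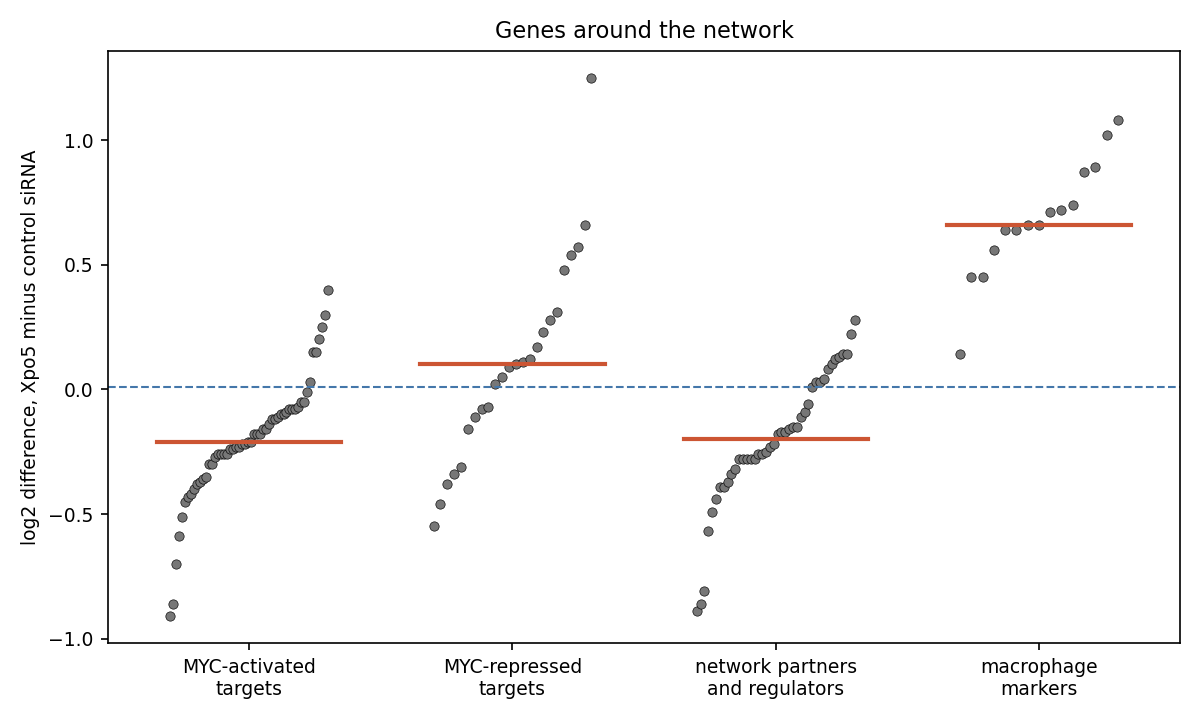
Each point is a gene, ordered by value within its list, and the y axis is the log2 difference between Xpo5 and control siRNA; orange bars are list medians (-0.21, 0.10, -0.20 and 0.66 from left to right) and the dashed line is the median of all genes, 0.01. Most MYC-activated targets and partners lie below the line, and the macrophage markers lie above it.

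Targets of the Mondo and MLX pair, a list of 10 with 9 tested, had a median of -0.25, and 8 were lower, where 48.9% of all genes were. Their median was -0.13 and -0.22 by experiment, and -0.13 on slide 1 and -0.12 on slide 2. None passed in limma with or without the block, and 0 had an unadjusted p under 0.05. Fasn, the fatty acid synthase gene, read -0.37, with its other probe at -0.74. Pfkfb3, a regulator of glycolysis, read -0.25, with its other probes from -0.63 to -0.05. Gpd1 read -0.33 and Tkfc -0.39. Like the others, this list was drawn up with earlier results of these data known.

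The genes whose profile over the 4 arrays was most like that of a member were found by the root mean square difference between mean-centred levels, over 13915 other genes. With 4 arrays many genes are close, and 391 lay within 0.1 of Myc and 1161 of Max, against 8 of Mxi1. The nearest to Myc were Desi1, Rrs1 and Fam53c, at 0.007, 0.020 and 0.022. Those nearest to Max were Sin3a, which also stands on the list of partners, Auts2 and Pbrm1, at 0.009, 0.011 and 0.012. Next to Mxi1 stood 9230114K14Rik at 0.020, Hars at 0.052 and Sprr1a at 0.065. For the brightest Mxd4 probe they were Pgap6, Bace2 and Hs3st3b1, at 0.026 to 0.029, and for Mnt they were Tapbp, Ankra2 and Dgke, at 0.015 to 0.019.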

How the data were processed

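Total RNA of 2 control siRNA and 2 Xpo5 siRNA samples was hybridised in 1 colour (Cy3), per the labels' protocols. In the deposited scanner files the values are spot intensity from Agilent Feature Extraction 10.5.1.1 on a linear scale, background-subtracted and detrended, per the file headers, with probe positions on mm9. The deposited series table holds log2 values, which were the log2 processed signal shifted by a constant per array for 99.7% to 99.8% of probes, within 0.001.

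The log2 processed signal was taken minus the array's 75th percentile over non-control probes. Outlier spots (77 to 134 per array) were left out and spots of a probe averaged. Probes well above background on both arrays of a group were kept. The linear models (lmFit, then eBayes) came from limma 3.58.1 in R 4.3.3, with two-sided p-values and Benjamini-Hochberg adjustment over all probes, or over genes (brightest kept probe) for lists, with a threshold of 0.05. Symbols came from RefSeq (GRCm38.p6): 26690 probes matched by accession, 5189 by symbol, 967 by synonym, and 8328 had none. The fit over probes without a block was tested on simulated data with independent noise, and the fit with the replicate block was not.

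Members and lists were chosen with earlier results of these data known, Nop16 and the macrophage markers among them. The rule named Xpo5, all member probes, up to 4 genes per list by unadjusted p, and up to 3 nearest profiles for 5 members. Markers of neural, epithelial and endothelial cells had medians of 0.30, -0.01 and 0.40 over 10, 7 and 4 genes, and fibroblast markers 0.08 over 16.

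Replicate numbers were read as the 2 named experiments. Same-numbered arrays deviated together from their groups' means (r = 0.515 over 25626 probes, which are not independent). The number of arrays limits all precision. Alternatives were normexp (offset 50, without spots of uneven background), quantile and median scaling, other filters, an intensity trend, the deposited table, slide or replicate blocks, the mean of a gene's probes, and each array left out.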

Additional observations from a re-analysis of the deposited data

How the results depend on the processing

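Over all probes, 0 passed between the siRNAs, against 1 with normexp background correction, 10 with median scaling, 10 with the deposited log2 table, 1 with an intensity trend and 4 with the replicate block. With any array left out the number was 0. Median scaling and the deposited table moved the median of all probes from 0.01 to -0.09. Between the experiments 0 passed, against 3513 with normexp and 2986 with an intensity trend. With the replicate block 2 genes passed in each of the activated, repressed and partner lists, against 0 without it, in the fit over genes. The block changed no member's call, but members were called in the fit over probes. With the block 0.0156% of all probes passed there, against 4.37% of all genes. Calls of members and of list genes are therefore not comparable. With arrays left out in turn, 0 passed in each list. The number of member probes that were lower went from 11 to 13 of 17 with an array left out and was 10 with normexp and 15 with median scaling. The number of lower genes went from 44 to 46 in the activated list, 5 to 11 in the repressed list and 28 to 30 in the partner list with an array left out. Over all alternatives the differences of Myc probe 1 ran from -0.67 to -0.43, of Mycl1 from -0.96 to -0.60, of Max from -0.49 to -0.16, of Mxi1 from -1.18 to -0.79, of Mxd1 probe 1 from 0.30 to 0.44 and of Mxd4 probe 1 from 0.49 to 0.92. The dim Mlx probe ran from -0.82 to 0.44. The causes were not tested.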
